A study of Mus musculus with 12 samples.

Results

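The comparison described here sets 3 arrays of LPS-treated ENS primary cultures against 3 arrays of untreated controls, 6 of the 12 Clariom S arrays of the series. The arrays were assigned to the groups by the titles of the samples, and all 22206 transcript clusters of the array enter the comparison. ENS primary cultures are cells of the enteric nervous system, the nerve network of the gut wall, grown together with the other cells of that wall. They came from the gut of e14.5 mouse embryos according to the labels, and the methods give a wider range of days that ends there. The embryos were of the Sox10flox line, whose alteration the methods call irrelevant to the study, and both groups share it. LPS cultures received lipopolysaccharide at 10 ng/ml for 6 h, controls received none, and neither group received 6-mercaptopurine (6-MP). The other 6 arrays are 3 of cultures given 6-MP before LPS and 3 given 6-MP alone. The methods describe 3 independent experiments, but no label ties a control array to an LPS array of the same experiment.

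LPS is a component of the outer membrane of Gram-negative bacteria. It is bound by the co-receptor CD14 and sensed by the receptor TLR4, which acts through the adaptor MyD88 towards the transcription factor NF-kB and through a second arm towards interferon regulatory factors and the release of type I interferon. Macrophages carry all parts of this receptor, and resident macrophages of the gut muscle layer lie close to enteric neurons. A culture that holds them responds to LPS directly and to the cytokines its own cells release. Besides the genes that rise, macrophages exposed to LPS are known to lower genes of their resting state.

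The values are log2 signals made by the authors, with array medians from 7.41 to 7.53, and the number of arrays limits their precision. A level of 5.78, under which 90% of 1452 clusters for taste, vomeronasal and olfactory receptors lie, serves here as the level of silent genes, and 15100 clusters had a mean above it. Of the marker lists, 22 of 23 genes of enteric neurons, 14 of 16 of enteric glia and progenitors, 14 of 14 of smooth muscle and 18 of 18 general macrophage genes lay above it, while the glial genes Sox10 (5.43 in controls) and S100b (3.72) lay below. In each group of 3 arrays 1 array stood apart on the second principal component, with scores of 33.2 to 48.2 against -32.5 to -8.16 for the other 8 arrays. Control 2 and LPS 2 are the arrays of this comparison that stood apart, and counts without all 4 such arrays are given beside those with them. Since these are bulk samples, fewer cells of a type and less RNA per cell cannot be told apart in any value below.

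LPS changed the transcriptome mostly upwards. In limma, 335 clusters were higher with LPS, 1.51% of the 22206 tested, and 21 were lower, 0.0946%. Called means here and below that the adjusted p was under 0.05 and that the groups differed by 2-fold or more. With values of a dim group raised to the level of silent genes, 56 rises were of 16-fold or more, 133 of 4 to 16-fold, 132 of 2 to 4-fold and 12 of under 2-fold, and 2 were dim in both groups. Of the falls 1, of a cluster without a symbol, reached 4-fold, 18 lay between 2 and 4-fold, 1 was under 2-fold and 1 was dim in both groups. A further 30 clusters rose (0.135%) and 15 fell (0.0675%) at an adjusted p under 0.05 with a fold under 2. Every LPS array lay above every control array in 1527 clusters (6.88%) and below every control array in 1816 (8.18%), and all 335 rises and 21 falls are among them. So more clusters lay wholly below than wholly above, although far fewer falls than rises were called. Over all clusters 56.6% of the changes were below 0, with a median of -0.04 on the log2 scale.

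**Figure D1:**
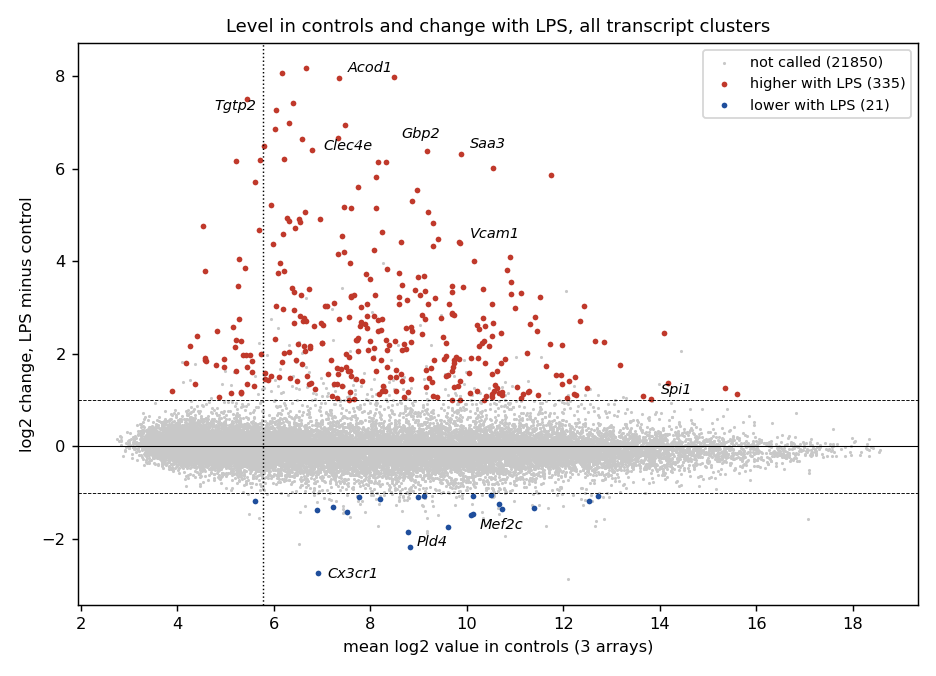
Mean log2 value in the 3 control arrays (horizontal) against the log2 change with LPS (vertical) for each transcript cluster, with called rises in red, called falls in blue, dashed lines at a fold of 2 and a dotted line at the level of silent receptor genes. The 335 rises reach 8.17, while the 21 falls lie between -2.73 and -1.06.

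The called falls started from higher levels than the called rises, with a median control value of 9.12 against 8.16 and 7.50 over all clusters. Of the clusters that rose, 41 had a control mean under 5.78 and 39 of these lay above it with LPS. Their change is given as a bound, with the values of the dim group raised to 5.78. Of the 21 clusters that fell, 19 have a gene symbol. The median change was 2.26 for the rises and -1.31 for the falls.

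The named fall of lowest adjusted p was Mef2c, a transcription factor of myeloid, muscle and nerve cells. Its log2 values were 10.17, 9.98 and 10.11 in the controls and 8.65, 8.57 and 8.60 with LPS. The lowest control array stood 1.33 above the highest LPS array, at a change of -1.48 (SE 0.19, adjusted p = 0.00109 in limma). Pld4, an endolysosomal exonuclease of single-stranded nucleic acids, had 9.20, 8.32 and 8.81 in the controls and 6.93, 7.09 and 6.77 with LPS. No LPS array came within 1 unit of a control array, and the change was -1.85 (SE 0.25, adjusted p = 0.00133). Tcf21, a transcription factor of mesenchymal precursors, had 10.75, 10.67 and 10.76 in the controls and 9.45, 9.52 and 9.16 with LPS. Its groups lay apart by more than the spread within either, with a change of -1.35 (SE 0.19, adjusted p = 0.00212).

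Genes of lipid and mitochondrial metabolism were among the falls. Nceh1 encodes an enzyme that splits cholesterol esters in macrophages. It had 10.82, 10.35 and 10.86 in the controls and 9.48, 9.40 and 9.42 with LPS. The lowest control array stood 0.87 above the highest LPS array, and the change was -1.24 (SE 0.18, adjusted p = 0.00282). Coq8a, which is needed for the synthesis of coenzyme Q, the electron carrier of mitochondria, had 7.15, 7.29 and 7.28 in the controls and 6.22, 6.07 and 5.49 with LPS. LPS 3 was the lowest array and fell under the level of silent genes, at a mean change of -1.31 (SE 0.22, adjusted p = 0.00737). Tmem86a, whose product breaks down lysoplasmalogens, changed by -1.45 (adjusted p = 0.0152), from 9.51 to 10.54 in the controls to 8.59 to 8.77 with LPS.

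Receptors and signalling proteins made up much of the rest. Gpr65, a receptor that senses protons, had 7.89, 7.15 and 7.50 in the controls and 5.78, 6.39 and 6.11 with LPS, a change of -1.42 (SE 0.27, adjusted p = 0.0149). LPS 1 reached the level of silent genes. The SLAM family receptor gene Cd84 changed by -1.73 (SE 0.37, adjusted p = 0.0305), with controls spread from 8.96 to 10.27. The fractalkine receptor gene Cx3cr1 went from 8.14, 6.22 and 6.41 in the controls to 4.87, 3.71 and 4.002, all silent levels, so that its fall is at least 2.22-fold (adjusted p = 0.0213). Map2k6, a kinase that activates p38, changed by -1.07 (adjusted p = 0.0452), and Arhgef6, an exchange factor of Rac and Cdc42, by -1.10 (adjusted p = 0.0129). Lfng, a glycosyltransferase that modifies Notch receptors, changed by -1.13 (adjusted p = 0.0168), and its LPS arrays lay between 7.04 and 7.11.

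Apobec1, a cytidine deaminase that edits messenger RNA, changed by -1.32 (SE 0.26, adjusted p = 0.0206). Ldb2, an adaptor of LIM-domain factors, changed by -1.19 (adjusted p = 0.0207) from the second-highest control level of the named falls, 12.53, below that of Ccdc34 (12.71), which changed by -1.08 (adjusted p = 0.0271). The histone gene H2bc21 (-1.09, adjusted p = 0.0126), the p53 target gene Sesn1 (-1.07, adjusted p = 0.0238) and the synaptic scaffold gene Dlg3 (-1.06, adjusted p = 0.0109) followed. Vmn2r89, a vomeronasal receptor gene, passed the test at an adjusted p of 0.0271 although both of its group means lay among silent genes, so no fold is given. It was the 1 gene called of 1450 of olfactory, vomeronasal and taste receptors.

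**Figure D2:**
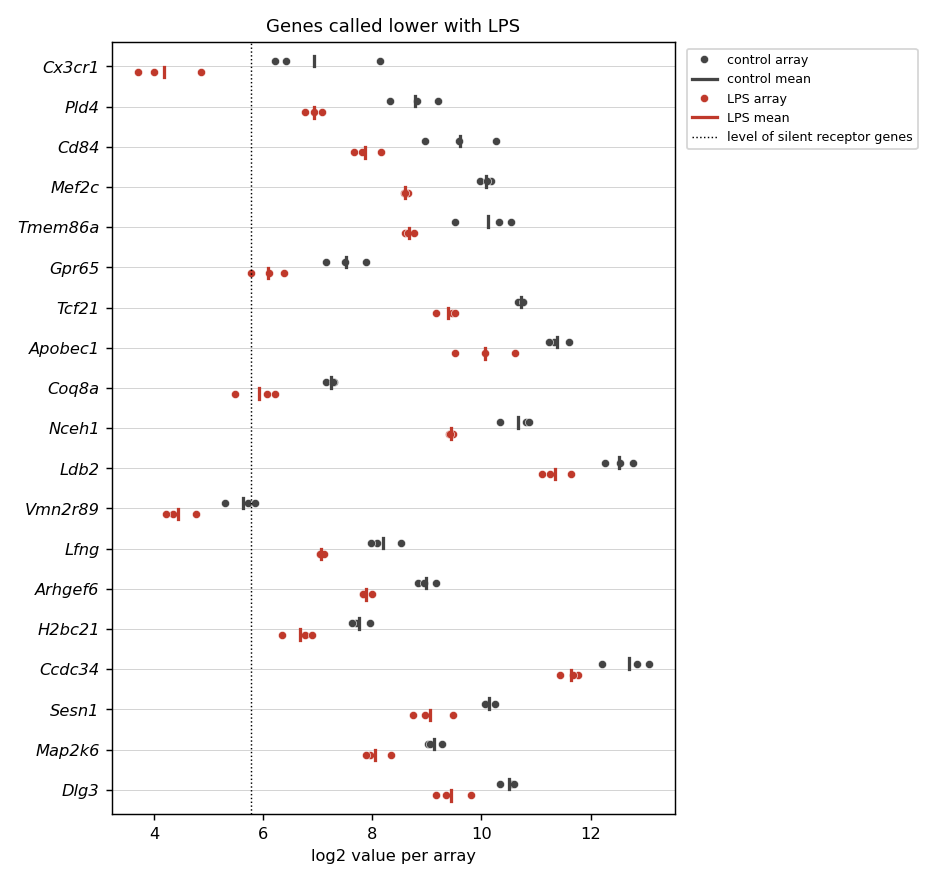
Log2 value of each of the 3 control arrays (grey) and 3 LPS arrays (red) for the 19 named genes called lower, with a bar at each group mean and a dotted line at the level of silent receptor genes. In every gene the highest LPS array lies below the lowest control array, and the LPS arrays of Cx3cr1 lie under 5.78.

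Of the 335 rises 213 were called in each of the 6 fits that leave out 1 array, and of the 21 falls 6. Of the 19 named falls, 5 were called in each: Pld4, Mef2c, Tcf21, Coq8a and Nceh1. H2bc21 was kept in 4 of these 6 fits (lost without control 1 or LPS 2) and Cx3cr1 in 3 (lost without control 1, LPS 2 or LPS 3). Gpr65, Ldb2, Vmn2r89, Arhgef6 and Dlg3 were kept in 2 fits, Map2k6 in 0 and the other 6 genes in 1 fit, which for Cd84 and Ccdc34 was that without control 3, for Apobec1 and Sesn1 that without LPS 2, and for Tmem86a and Lfng that without control 2. The highest adjusted p of a named fall in these fits was 0.208, for Map2k6. Over all clusters the count of falls was 10 without control 1 and without LPS 3, 13 without LPS 1 and without control 3, 15 without LPS 2 and 21 without control 2.

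Most genes of resting macrophages and microglia lay lower with LPS. Of 27 genes of the resting list, 0 were called higher and 4 lower (Cx3cr1, Pld4, Cd84 and Mef2c), against 0.0974% of all genes with a symbol, in limma. The list was written with earlier results of these data known, so its counts are a description and no test. Mef2c is also a gene of muscle and nerve cells. In this list 23 genes lay below 0, and at an unadjusted p under 0.05 the counts were 0 higher and 18 lower. Of all 19505 genes 957 were higher and 858 lower at that p in limma, and later counts at it are to be read beside these. The median change of the list was -0.97, against -0.05 over all 19505 genes. All 3 LPS arrays lay below all controls in 12 genes of the list, and 13 were lower by a fold of at least 2. The mean level of the list ran from 8.30 to 9.04 in the controls and from 7.54 to 7.81 with LPS. Control 1 gave the 9.04, and control 3 was at 8.55. Without control 1, Cx3cr1 and Cd84 were not called, while Pld4 and Mef2c were. Members that were lower without passing the test include the complement genes C1qa (-1.33, adjusted p = 0.188), C1qb (-0.90) and C1qc (-1.09), the mannose receptor gene Mrc1 (-1.28, adjusted p = 0.221), and Mertk (-1.15, adjusted p = 0.178), a receptor for the uptake of dying cells. The growth factor receptor gene Csf1r, on which macrophages depend, was at -0.49 (adjusted p = 0.788), and the microglial gene Tmem119 at 0.37 (adjusted p = 0.928).

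Among 18 general macrophage genes the median change was -0.21, and 1 gene was called, upwards. This was Spi1, the master transcription factor of myeloid cells, at 13.95, 13.997 and 13.53 in the controls and 14.85, 14.70 and 14.98 with LPS (2.02-fold, adjusted p = 0.0268). Its call was lost when any of 5 arrays was left out, with a highest adjusted p of 0.137, and was kept without control 2. The mean level of this list was 10.17 to 10.73 in the controls and 10.15 to 10.46 with LPS, so its groups overlapped. The part of the share of macrophages in the falls of the resting list was not tested. The leukocyte gene Ptprc was at 0.82 (adjusted p = 0.155) and the macrophage surface gene Adgre1 at 0.72 (adjusted p = 0.404), while Tyrobp, an adaptor of myeloid receptors, was at -0.69 (adjusted p = 0.238).

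Just outside the threshold lay 11 clusters at a fold of at least 2 in the falling direction with an adjusted p from 0.05 to 0.10. F13a1, the gene of a coagulation factor subunit made by macrophages, was at -1.14 (adjusted p = 0.052). The purinergic receptor gene P2ry12 (-1.53, adjusted p = 0.0662) and the lysophosphatidylserine receptor gene Gpr34 (-1.42, adjusted p = 0.062), which both mark microglia, and Cd180 (-1.11, adjusted p = 0.0708), a relative of TLR4, lay there too. Hpgds, which makes prostaglandin D2, was at -1.07 (adjusted p = 0.0641) and the serotonin receptor gene Htr2b at -1.35 (adjusted p = 0.0839). The fatty acid enzyme gene Acsm3 (-1.84, adjusted p = 0.065) had 1 control array, control 3, at 10.26 and the others at 8.95 and 8.34.

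Without the 4 arrays that stood apart, 8 arrays with 2 per group remained, and 50 clusters were called lower and 356 higher. Of the 50, 14 were among the 21 falls and 36 were not. All 36 lay below 0 with all arrays, but these include the arrays of the smaller fit, so the shared sign was nearly given. With all arrays 4 of the 36 had an adjusted p under 0.10 in limma. The 36 include Tbxas1, the thromboxane synthase gene, at -2.09 (adjusted p = 0.00746, against -1.87 and 0.229 with all arrays). Arg1, the arginase gene of alternatively activated macrophages, was at -2.12 (adjusted p = 0.0401, against -1.47 and 0.485), and P2ry12, P2ry13, F13a1 and Mertk of the resting macrophage list were called as well. The list's median was -1.05 in that fit. Also among the 36 was Rgs2, an inhibitor of G protein signalling (-1.85, adjusted p = 0.0363, against -1.71 and 0.104 with all arrays). Ddc, which makes dopamine and serotonin, was at -1.29 (adjusted p = 0.0208, against -1.085 and 0.201). Cybrd1, an iron reductase gene, was at -1.82 (adjusted p = 0.0308, against -1.30 and 0.884). Of the named falls 12 of 19 were kept.

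Falls of under 2-fold that passed the adjusted p were few. Cd300a, an inhibitory receptor of myeloid cells, had 8.22, 8.27 and 8.26 in the controls and 7.46, 7.40 and 7.43 with LPS. These were tight groups, 0.77 apart at the nearest, and the change of -0.82 (SE 0.15, adjusted p = 0.0095) passed with any 1 array left out but not without the 4 arrays apart (adjusted p = 0.0877). Mcee, an enzyme of propionate breakdown, was at -0.97 (adjusted p = 0.0141) and Pstk, which acts in selenocysteine synthesis, at -0.97 (adjusted p = 0.0151). Cd4 (-0.91, adjusted p = 0.0268) and Ormdl1, a regulator of sphingolipid synthesis (-0.79, adjusted p = 0.027), followed. Mcee lost the call without control 1 or LPS 3, and Pstk, Cd4 and Ormdl1 each without 5 or more of the 6 arrays.

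Of the 305 named genes that rose, 32 were cytokines or chemokines, 69 others were interferon-stimulated, NF-kB, GTPase or MHC class I genes, and 204 were in none of these lists. These 204 divide into 95 genes of other lists and families and 109 of none. For each risen gene named from here on, the call was kept when any 1 of the 6 arrays was left out, unless the arrays that ended it are named. This does not hold for counts of lists, which include calls that were lost in such fits. The 15 largest rises outside the cytokines ranged from 249.9-fold for Acod1, which makes itaconate, to 29.99-fold for Ch25h, which makes 25-hydroxycholesterol. All 15 were called without the arrays that stood apart. In the fits with 1 array left out 10 of the 15 were always kept, and the interferon-stimulated genes Ifit3 and Ifit3b (without control 1, control 3 or any LPS array), Usp18 (control 1, control 3 or LPS 2), Irf7 (control 1, control 3, LPS 1 or LPS 2) and Rsad2 (control 1 or control 3) were not.

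Ccrl2, a chemerin-binding receptor gene, had 5.77, 7.28 and 5.62 in the controls and 12.41, 12.44 and 12.42 with LPS. The LPS arrays lay 5.13 or more above the controls, and the rise was 73.5-fold (log2 SE 0.40, adjusted p = 5.57e-06). Ifit3, an antiviral gene, had 8.69, 10.99 and 7.23 in the controls and 14.02, 15.70 and 13.83 with LPS. Control 2 and LPS 2, the arrays that stood apart, were the highest of their groups, and the rise of 46.7-fold had an SE of 1.13 (adjusted p = 0.0235). Without the 4 arrays apart its adjusted p was 0.000257.

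Of the moderate rises, Sbno2, a co-regulator of the interleukin-10 response, had 8.04, 8.60 and 8.01 in the controls and 10.31, 10.11 and 9.82 with LPS (3.64-fold, SE 0.21, adjusted p = 0.000335). Adar, which edits double-stranded RNA, had 10.10, 10.29 and 10.31 and then 12.03, 12.34 and 12.08 (3.77-fold, adjusted p = 0.000375). In both genes the groups lay more than 1 unit apart. Birc2, a ubiquitin ligase of TNF receptor complexes, rose 2.92-fold (SE 0.18, adjusted p = 0.000459), from 9.43 to 9.78 in the controls to 11.02 to 11.25. Tapbp, the chaperone tapasin that loads MHC class I molecules, rose 3.31-fold (adjusted p = 0.000463).

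Receptors of other signals were among the moderate rises. Osmr, the receptor chain for oncostatin M, had 10.68, 10.30 and 10.59 in the controls and 12.23, 11.71 and 12.33 with LPS (2.96-fold, SE 0.20, adjusted p = 0.000921). Il1r1, the signalling receptor of interleukin-1, had 11.77, 12.09 and 11.70 and then 13.36, 13.22 and 13.60 (2.90-fold, SE 0.20, adjusted p = 0.00101). Neither gene overlapped between the groups, and both were well expressed before LPS. Stra6, the cell-surface receptor for retinol-binding protein, rose 3.29-fold (SE 0.21, adjusted p = 0.000699), from 8.25 to 8.50 in the controls to 9.62 to 10.39. Nod2, a sensor of bacterial peptidoglycan, was silent in the controls at 4.35 to 4.74 and reached 6.26 to 6.66, at least 1.58-fold (adjusted p = 0.000454).

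Marchf1, a ubiquitin ligase that removes MHC class II from the cell surface, rose at least 3.43-fold (adjusted p = 0.000633). Rasgrp1, an activator of Ras, rose 3.62-fold (adjusted p = 0.00118), Arg2, the mitochondrial arginase, at least 2.56-fold (adjusted p = 0.00118) and C1ra, a protease of the first complement component, 2.75-fold (adjusted p = 0.000921). These 12 genes are those with the lowest adjusted p among rises of 2 to 4-fold outside the cytokines. All 12 were kept in each of the 6 fits with 1 array left out, with adjusted p values of at most 0.00968, and without the arrays that stood apart. They were picked for a low p in the fit of all arrays, which shares most arrays with these fits. So their being kept says nothing about other moderate rises. Of those, Il4ra, Noct, Slfn9 and Trim6 lost their calls without any 1 of the 6 arrays.

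**Figure D3:**
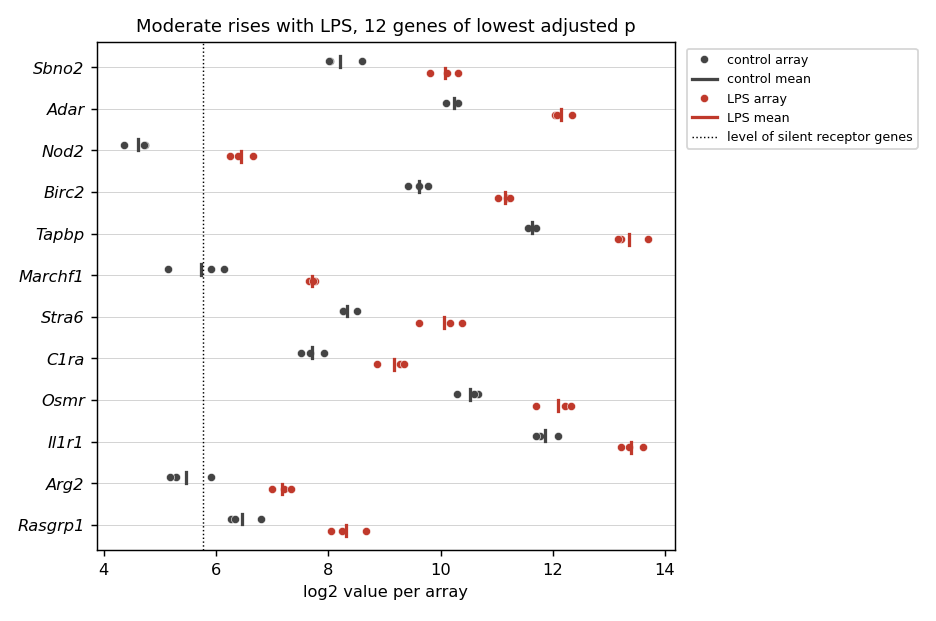
Log2 value of each of the 3 control arrays (grey) and 3 LPS arrays (red) for the 12 moderate rises of lowest adjusted p, with a bar at each group mean and a dotted line at the level of silent receptor genes. The groups do not overlap in any gene, and Nod2, Marchf1 and Arg2 have control means under 5.78.

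Rises of under 2-fold included Rela, the NF-kB subunit p65, which was high before LPS at 13.61, 13.98 and 13.93 and reached 14.91, 14.66 and 14.86 (1.96-fold, SE 0.19, adjusted p = 0.0182). Trib1, a pseudokinase, was the most even of them, at 5.93 to 6.09 in the controls and 6.84 to 7.15 with LPS (1.97-fold, SE 0.15, adjusted p = 0.0041). The urokinase receptor gene Plaur (1.98-fold, adjusted p = 0.0195), Aida (1.88-fold, adjusted p = 0.0143), Sdad1 (1.90-fold, adjusted p = 0.0181) and Sipa1l2 (1.98-fold, adjusted p = 0.019) rose as well. Trib1 kept its call with any 1 array left out, and its adjusted p was 0.0586 without the 4 arrays apart. Rela, Sdad1 and Sipa1l2 lost theirs without control 1, control 3, LPS 1 or LPS 3, Plaur without these or LPS 2, and Aida without control 2, control 3, LPS 1 or LPS 3.

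Sensors of microbial products and of foreign nucleic acid rose in part. Of 37 pattern recognition receptors 15 were higher (40.5%, against 1.56% of all 19505 genes) and 0 lower, with a median of 0.36. At an unadjusted p under 0.05 the counts in limma were 18 higher and 7 lower. Nlrp3, the sensor of an inflammasome, had a silent control mean and rose at least 6.03-fold (adjusted p = 2.8e-05). Ifih1, the RNA sensor MDA5, rose 10.999-fold (adjusted p = 0.000759) and Tlr3, the endosomal sensor of double-stranded RNA, 5.97-fold (adjusted p = 0.000606). Tlr2, a receptor of bacterial lipopeptides, rose 7.30-fold (adjusted p = 0.00678) and Lbp, the LPS-binding protein, 7.11-fold (adjusted p = 0.00104). Of 32 C-type lectins 4 were higher (12.5%), among them Clec4d at 3.46-fold (adjusted p = 0.00398).

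Genes that drive cell death and genes that protect from it were among the rises. Of 33 such genes 8 were higher (24.2%, against 1.56% of all genes) and 0 lower (median 0.28), and in limma 3 were lower at an unadjusted p under 0.05. Casp4, the caspase that binds LPS in the cytosol and is also known as caspase-11, had 9.52, 9.84 and 8.67 in the controls and 12.11, 12.93 and 12.59 with LPS, with no overlap (9.19-fold, SE 0.42, adjusted p = 0.00109). Mlkl, the executor of necroptosis, rose 5.73-fold (adjusted p = 0.0012) and the death receptor gene Fas 7.07-fold (adjusted p = 4.07e-05). The survival genes Bcl2a1d (3.74-fold, adjusted p = 0.00428), Bcl2a1b (3.51-fold, adjusted p = 0.00398) and Bcl2a1a (3.62-fold, adjusted p = 0.00899) rose too. They are near-identical copies, so the probes may not tell them apart. Bcl2a1a lost the call without control 3 (adjusted p = 0.0559).

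Of 22 leukocyte adhesion molecules 7 were higher (31.8%, against 1.56% of all genes) and 0 lower in limma, also at an unadjusted p under 0.05, with a median of 0.10. Vcam1, a ligand of lymphocyte and monocyte integrins, had 9.87, 10.05 and 9.69 in the controls and 14.61, 13.68 and 14.48 with LPS (20.9-fold, SE 0.30, adjusted p = 7.01e-06). LPS 2 was the lowest LPS array and still 3.63 above the highest control. Icam1, a ligand of leukocyte integrins, rose 11.2-fold (adjusted p = 0.00162), the hyaluronan receptor gene Cd44 4.58-fold (adjusted p = 0.000254) and the integrin gene Itgal 2.72-fold (adjusted p = 0.00301). Of 23 hyaluronan and proteoglycan genes 4 were higher (17.4%), with Has2, a hyaluronan synthase, at 3.10-fold (adjusted p = 0.00212) and Tnfaip6, which cross-links hyaluronan, at 4.21-fold (adjusted p = 0.000454). Of 42 collagen genes 0 were called in limma and 0 passed an unadjusted p under 0.05, with a median of -0.01. Of all genes 1.56% were called higher and 0.0974% lower, so the 0 called is near that share and no result about collagens.

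Some members of 3 families that hold antiviral genes rose, against 1.56% of all genes. Of 11 poly-ADP-ribose polymerases 5 were higher (45.5%) and 0 lower (median 1.11). Parp14 had 7.69, 7.96 and 7.14 in the controls and 10.74, 11.44 and 10.29 with LPS (9.37-fold, SE 0.38, adjusted p = 0.000459), and Parp12 rose 8.38-fold (adjusted p = 0.000168). Parp10 (8.43-fold, adjusted p = 0.00678) and Parp9 (6.24-fold, adjusted p = 0.00774) rose as well, the latter without a call when control 3 was left out (adjusted p = 0.0506). Of 61 tripartite motif proteins 9 were higher (14.8%, median 0.14), led by Trim30a (28.8-fold, adjusted p = 0.00121) and Trim21, an intracellular antibody receptor (6.57-fold, SE 0.21, adjusted p = 2e-05). Of 10 Schlafen genes 3 were higher, with Slfn8 at 13.4-fold (adjusted p = 0.00277) and Slfn2 at 5.23-fold (adjusted p = 0.00263).

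Of 361 solute carriers 4 were higher and 0 lower, with a median of -0.02. Their share of 1.11% was near that of all genes, 1.56%, so the count is no result about the family. They were Slc15a3, a lysosomal peptide transporter (10.1-fold, adjusted p = 0.00015), Slc7a2, which carries arginine (8.003-fold, adjusted p = 0.00103), Slc7a11, the cystine carrier (7.96-fold, adjusted p = 0.00101), and Slc9a3, a sodium-proton exchanger (7.42-fold, adjusted p = 0.00789). Nos2, the inducible nitric oxide synthase, which uses arginine, had 6.94, 7.51 and 6.71 in the controls and 9.56, 10.71 and 10.02 with LPS (8.24-fold, SE 0.44, adjusted p = 0.00246). All 3 LPS arrays stood over 2 units above the controls. The cytochrome P450 gene Cyp1b1 was the 1 of 99 P450 genes called, at 4.71-fold higher (adjusted p = 0.00538), likewise no result about the family.

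Among inhibitors of signalling, Rgs16, an inhibitor of G protein signalling, had 8.45, 8.65 and 7.97 in the controls and 12.31, 12.02 and 12.26 with LPS (14.3-fold, SE 0.29, adjusted p = 1.37e-05), the 1 of 23 RGS genes called. Zc3h12a, a ribonuclease that degrades cytokine messages, rose 5.86-fold (adjusted p = 0.00015). Zfp36, which destabilises such messages, rose 2.48-fold (adjusted p = 0.0492), but its call was lost when any array except control 2 was left out, with a highest adjusted p of 0.222. Of 17 regulators of RNA decay 4 were higher (23.5%, against 1.56% of all genes) and 0 lower. Of 8 SOCS inhibitors 2 were higher. Of 15 MAP kinase phosphatases and Sprouty inhibitors 0 were called in limma, which is near the share of all genes, with 5 higher at an unadjusted p under 0.05.

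Receptors and growth factors of the gut wall changed singly. Htr2a, a serotonin receptor gene, rose 3.83-fold (SE 0.37, adjusted p = 0.0154), from 7.04 to 7.83 in the controls to 8.86 to 10.0, the 1 of 14 serotonin receptors called. Its call was lost without control 3, LPS 2 or LPS 3, with a highest adjusted p of 0.0905. Fgf7, a growth factor of mesenchyme for epithelium, rose 4.64-fold (SE 0.24, adjusted p = 0.000282), and Flt1, a receptor of vascular growth factors, 4.92-fold (adjusted p = 0.00104). Gja1, the gap junction protein connexin 43, rose 2.17-fold from a high level (SE 0.18, adjusted p = 0.00519). Of 90 potassium channels 0 were called in limma, with 2 higher and 8 lower at an unadjusted p under 0.05. Of 35 voltage-gated sodium and calcium channels 0 were called, with 1 higher and 2 lower at that p. Of all 19505 genes 957 were higher and 858 lower at that p, and 1.56% were called higher and 0.0974% lower. The 0 called in each channel list is near that share and no result about the channels.

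Of the 109 risen genes in no list, the following were picked after their values were seen, for their size or role. Steap4, a metal reductase, had 7.29, 8.06 and 6.91 in the controls and 11.66, 11.48 and 12.77 with LPS (23.5-fold, SE 0.48, adjusted p = 0.000219). Control 2 was its highest control and lay over 3 units below the lowest LPS array. The mitochondrial superoxide dismutase gene Sod2 rose 4.85-fold (adjusted p = 6.29e-05) and Irak3, an inhibitor of TLR signalling, 10.5-fold (adjusted p = 0.000447). The bradykinin receptor gene Bdkrb1 rose 6.31-fold (adjusted p = 0.000671), and the plasma protein genes Cp, which carries copper, and Hp, which binds haemoglobin, were 8.93-fold (adjusted p = 6.29e-05) and 10.0-fold higher (adjusted p = 0.00242).

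**Figure D4:**
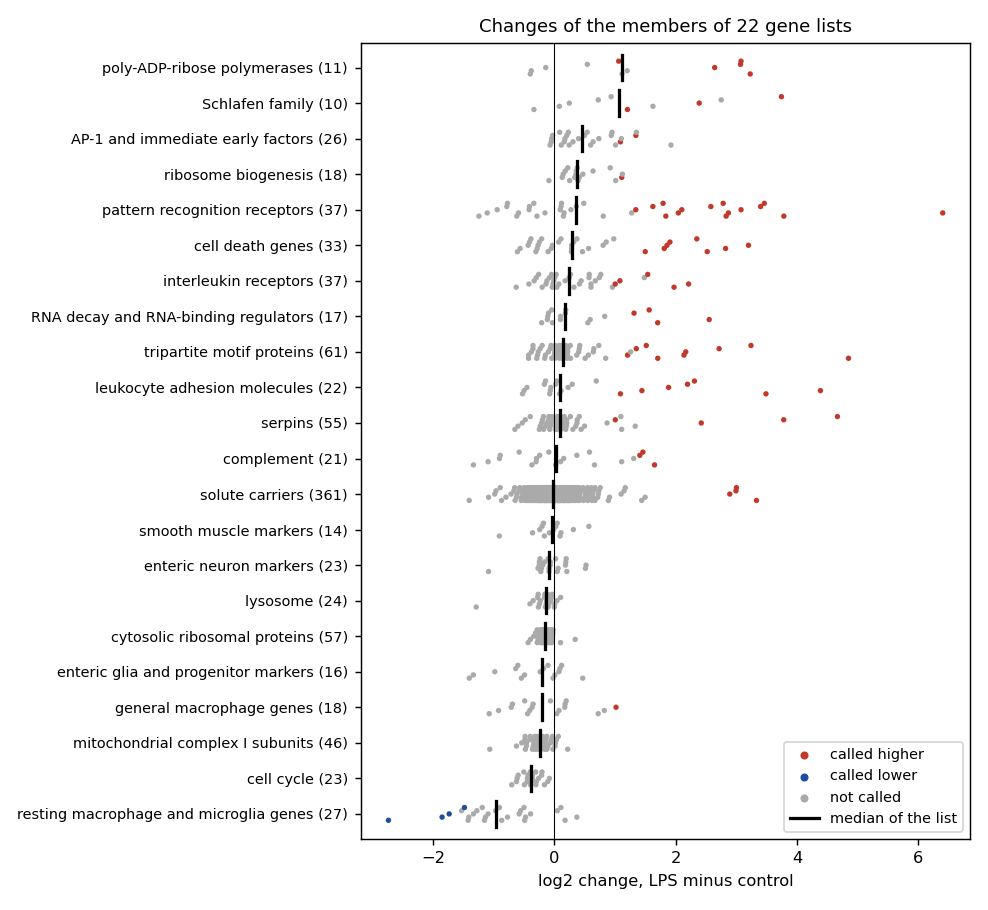
Log2 change with LPS (horizontal) of each member of 22 gene lists, with the number of measured genes in brackets, called rises in red, called falls in blue and a black bar at each list's median. Families such as the PARPs hold called rises while most solute carriers lie near 0, and the resting macrophage list has the lowest median, -0.97.

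Of further lists, 5 of 37 genes with interleukin receptor symbols (13.5%) and 3 of 11 interferon regulatory factors (27.3%) were higher. So were 3 of 21 complement genes (14.3%) and 4 of 55 serpins (7.27%). Of all genes 1.56% were higher and 0.0974% lower, and the 0 lower in each of these lists is near that share. The 5 include Il1rn, the interleukin-1 receptor antagonist, which is no receptor and is also among the cytokines. The call of Il1rn was lost without any array except control 1. Il1rl2 and Il4ra lost theirs without any 1 of the 6 arrays, and Il13ra2 without control 1, control 2 or LPS 3. Of the 5, Il1r1 alone was always kept. In the cultures given 6-MP before LPS, 1 of the 37 was called higher. The genes of dividing cells lay lower in 23 of 23 cases, with a median of -0.38 and a range from -0.70 to -0.08, and 0 were called in limma, with 4 lower at an unadjusted p under 0.05. All LPS arrays lay below all controls in 9 of them, against 8.18% of all clusters, and the mean level of the list overlapped between the groups, at 10.73 to 11.31 in the controls and 10.39 to 10.76 with LPS. Of 57 cytosolic ribosomal protein genes 55 lay below 0 at a median of -0.15. Of 46 genes of mitochondrial complex I, taken by symbol and including the assembly factor gene Ndufaf7, 41 lay below 0 at a median of -0.24. In limma 0 of either were called, which is near the share of all genes, and 1 complex I gene was lower at an unadjusted p under 0.05. By contrast 17 of 18 genes of ribosome biogenesis lay above 0, with a median of 0.37. Rcl1, of ribosomal RNA processing, was the 1 called (2.16-fold, adjusted p = 0.0316), and it lost the call without any array except LPS 2, with a highest adjusted p of 0.162.

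Markers of neurons, glia and muscle of the gut wall held 0 called genes in limma. Of all 19505 genes 1.56% were called higher and 0.0974% lower, so 0 in lists this small is near that share and no result about these markers. At an unadjusted p under 0.05 in limma, 1 neuron gene and 3 glial genes were lower, against 858 of all 19505 genes. The medians were -0.09 for 23 enteric neuron genes, -0.21 for 16 genes of enteric glia and progenitors and -0.05 for 14 smooth muscle genes. Fabp7, a fatty acid-binding protein of glia, had 10.08, 11.17 and 10.71 in the controls and 9.66, 9.43 and 8.86 with LPS. All 3 LPS arrays lay below the controls, but the change of -1.34 (SE 0.38) did not pass (adjusted p = 0.146). In the cultures given 6-MP before LPS, Fabp7 was called lower (-1.69, adjusted p = 0.0436), as was the glial cadherin gene Cdh19 (-1.12, adjusted p = 0.0382), which was at -0.98 without 6-MP (adjusted p = 0.0739). Of all clusters 0.131% were called lower in those cultures. The neighbouring imprinted genes Peg3 (-1.56, adjusted p = 0.193), Zim1 (-1.73, adjusted p = 0.407) and Usp29 (-1.09, adjusted p = 0.246) were each below the controls in all LPS arrays and did not pass either. Of 18 gut mesenchyme markers Tcf21 alone was called.

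Genes that rose often lay side by side on the chromosomes. In the gene order of GRCm38.p6, 79 of the 305 risen genes (25.9%) had a risen gene as a direct neighbour, against 2.98% of all 19505 placed genes. There were 10 runs of 3 or more risen neighbours, which held 37 genes. The longest run held 7 tripartite motif genes on chromosome 7, from Trim6 through Trim12a, Trim12c, Trim30b, Trim30a and Trim30d to Trim30e-ps1. Other runs held Parp14, Dtx3l and Parp9 on chromosome 16, Tap1, Psmb8 and Tap2 on chromosome 17, Gbp7, Gbp3 and Gbp2 on chromosome 3 and the complement genes C1ra, C1s1 and C1rb on chromosome 6. Several runs consist of similar gene copies whose probes may share signal. Of the genes named in these runs, Trim30b and Trim30e-ps1 were at silent levels in both groups, Trim6 lost its call without any 1 of the 6 arrays, Tap2 without control 2, control 3, LPS 1 or LPS 2, and C1s1 without control 1, control 3 or LPS 2. The run of Parp14, Dtx3l and Parp9 also holds Dtx3l, a ubiquitin ligase and no copy of the others (6.42-fold, adjusted p = 0.00169).

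The promoters of risen genes were searched for short motifs on both strands, in the 250 bases before each start in the RefSeq table of GRCm38.p6, which held 238 of the 305 risen genes, 17 of the fallen genes and 15691 genes in all. An interferon response motif, TTCNNTTTC, was found in 23.9% of the risen genes and 8.01% of all genes. A kB motif, GGGANNTTC, was found in 9.66% against 3.59%, a STAT motif, TTCNNNGAA, in 15.5% against 7.76%, and an AP-1 motif, TGANTCA, in 16.0% against 7.37%. Among the 17 fallen genes the counts were 2, 0, 1 and 4. Outside cytokines and chemokines the share was 24.7% for the interferon response motif and 6.98% for the kB motif. A match is a description of the letters only. Stretches of 160 bases that end at the base before the start are given for 4 risen genes and 1 fallen gene, to show where the motifs lie, with matches in capitals. Gbp2 (chr3:142620503-142620662, plus strand) holds an AP-1 and an interferon response match, Gbp3 (chr3:142559884-142560043, plus strand) 2 interferon response matches that overlap, Tgtp2 (chr11:49064213-49064372, minus strand) a STAT and an interferon response match, Pde4b (chr4:102569900-102570059, plus strand) a kB and a STAT match that overlap, and Coq8a (chr1:180193486-180193645, minus strand) an AP-1 match.
Gbp2: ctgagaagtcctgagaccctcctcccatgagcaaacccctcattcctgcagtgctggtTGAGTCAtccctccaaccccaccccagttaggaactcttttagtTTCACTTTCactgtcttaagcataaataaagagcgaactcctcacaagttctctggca
Gbp3: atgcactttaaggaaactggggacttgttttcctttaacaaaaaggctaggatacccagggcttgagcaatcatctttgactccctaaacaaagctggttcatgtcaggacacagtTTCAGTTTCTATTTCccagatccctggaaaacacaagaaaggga
Tgtp2: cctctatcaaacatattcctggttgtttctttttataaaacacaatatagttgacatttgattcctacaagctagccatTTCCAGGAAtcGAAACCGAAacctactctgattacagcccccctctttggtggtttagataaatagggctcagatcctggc
Pde4b: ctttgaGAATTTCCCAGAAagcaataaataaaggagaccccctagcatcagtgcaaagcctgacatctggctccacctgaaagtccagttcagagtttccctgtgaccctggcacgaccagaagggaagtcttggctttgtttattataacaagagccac
Coq8a: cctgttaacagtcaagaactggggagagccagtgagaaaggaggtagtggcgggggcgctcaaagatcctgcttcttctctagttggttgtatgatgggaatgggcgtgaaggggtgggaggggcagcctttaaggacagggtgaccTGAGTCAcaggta

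The guanylate-binding protein genes Gbp2 and Gbp3, which attack vacuoles that hold microbes, were 83.9-fold (adjusted p = 4e-06) and 71.0-fold higher (adjusted p = 0.000335). Tgtp2, whose product is a GTPase of cell-autonomous immunity, rose 154-fold (adjusted p = 7.01e-06). Pde4b, a phosphodiesterase that breaks down cyclic AMP, rose 3.83-fold (SE 0.34, adjusted p = 0.00876), with a call lost without control 3 or LPS 3 (highest adjusted p = 0.0542). The table lists 4 starts for Pde4b and 2 each for Gbp3 and Coq8a, of which 1 with a match is shown.

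The same LPS treatment was measured a second time in cultures given 6-MP beforehand, on 6 other arrays. These entered the same fit, so both comparisons share 1 estimate of the spread, and the study describes 3 independent experiments for all 4 groups, which the cultures may share. There 291 clusters were called higher (1.31%) and 29 lower (0.131%). All 335 rises had the same sign in that pair and 273 were called again, which is 81.5% of the 335 and 93.8% of the 291. Over all clusters 67.0% had the same sign. Of the 21 falls 20 had the same sign and 6 were called again, which is 28.6% of the 21 and 20.7% of the 29. The 6 were Mef2c, Pld4, Tcf21, Nceh1, Gpr65 and Apobec1. All 45 changes of under 2-fold that passed the adjusted p kept their sign. The median change was 2.08 for the rises and -0.85 for the falls.

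Of the fallen genes, Nceh1 had 10.73, 10.84 and 11.004 with 6-MP alone and 9.11, 9.37 and 9.54 with LPS + 6-MP, a change of -1.52 (SE 0.18, adjusted p = 0.00077). Apobec1 changed by -1.68 (adjusted p = 0.00482) and Mef2c by -1.30 (adjusted p = 0.00369). Coq8a differed, with 6.49, 6.91 and 7.13 with 6-MP alone and 6.96, 6.59 and 6.85 with LPS + 6-MP, which overlap at a change of -0.04. Lfng was at -0.11 there. The difference between the 2 changes of Coq8a was 1.27 and that of Lfng 1.03, and neither passed the test of the difference in limma (adjusted p = 1). In that test 0 clusters passed the adjusted p and 434 an unadjusted p under 0.05.

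**Figure D5:**
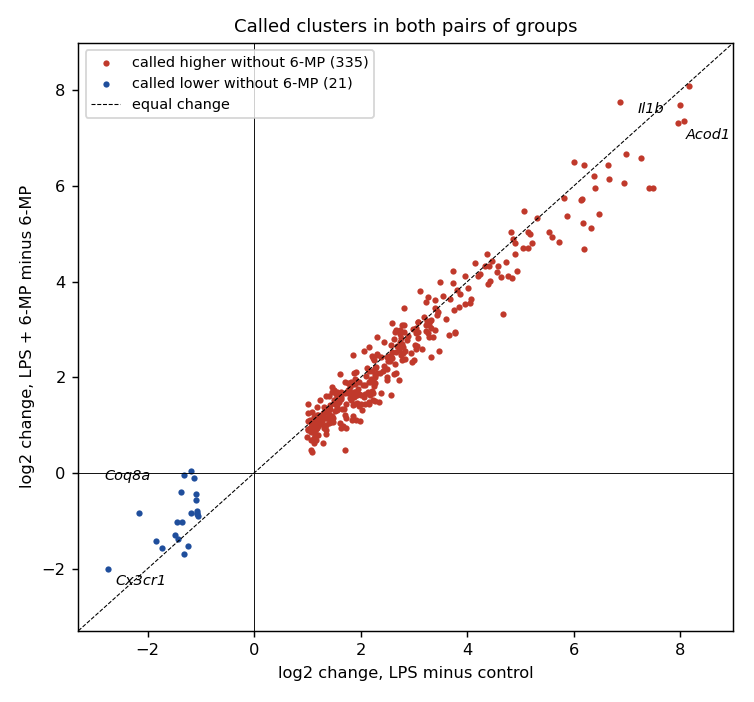
Log2 change with LPS without 6-MP (horizontal) against the change with LPS in cultures given 6-MP beforehand (vertical) for the 335 clusters called higher (red) and the 21 called lower (blue) without 6-MP, with a dashed line of equal change. All 335 red points lie above 0 on both axes, and 20 of 21 blue points lie below 0 on both, with Coq8a close to 0 in the pretreated cultures.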

How the data were processed

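RNA of mouse ENS cultures was hybridised to Clariom S arrays, 3 for each of 4 groups. The deposited values are log2 signals that the authors made in Transcriptome Analysis Console, with normalization and genome build not given in the sources used here. Without the 6640 array controls among the 28846 entries, 22206 transcript clusters remained for the tests. Of these 19572 carry 1 symbol in the platform annotation, 2634 stay unnamed, and of clusters that share a symbol the one of highest mean was used. Group means of all 12 arrays were fitted in limma 3.58.1 (R 4.3.3) and tested with the moderated test and Benjamini-Hochberg adjustment over all clusters. The test was tried on simulated data first. The spread is that between 3 independent experiments, and an exact permutation test of 3 against 3 cannot go below 0.1, so none was used. No column of values was left unmapped. A Student t-test, a replicate block, normalizations, filters and the omission of arrays were tried as alternatives.

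Members and lists were chosen with earlier results of these data known. Named genes are all called falls with a symbol, the 15 largest rises outside cytokines, the 12 rises of 2 to 4-fold with the lowest adjusted p, the 6 smaller changes of lowest p in each direction, falls with an adjusted p from 0.05 to 0.10 and up to 4 genes of lowest p per list. Further genes of lists, of runs of neighbours and of the fit without 4 arrays were named after their values were seen.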

Additional observations from a re-analysis of the deposited data

How the results depend on the processing

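The direction of all 335 rises and 21 falls was kept in every alternative fit that held the cluster. Leaving out arrays could not change it, since the groups overlapped in none of these clusters. Left out one at a time, the 6 arrays gave 236 to 310 rises, 10 to 21 falls, 4 to 8 changes under 2-fold (45 with all arrays) and, in the count of clusters called in both LPS comparisons, 214 to 270 (279 with all arrays). Changes under 2-fold numbered 14 with the control and LPS arrays alone, 22 with the replicate block and 5 without the 4 arrays apart. The latter fit gave 50 falls, an unadjusted p 92 and a fold limit of 1.5 gave 36. A Student t-test, which the methods name for 2 groups but not for the arrays, gave 413 rises and 59 falls at an unadjusted p under 0.05 with the fold of 2, but after Benjamini-Hochberg adjustment 0 rises, 0 falls and 0 changes under 2-fold, its lowest adjusted p being 0.0612. The cause of these differences was not tested. The labels do not pair the arrays by replicate number. Same-numbered control and LPS arrays had correlations of deviations of -0.0694 (number 1), 0.493 (number 2) and -0.0628 (number 3). The highest correlation with an LPS array of another number was 0.389 for control 1, -0.286 for control 2 and 0.427 for control 3. Which arrays share an experiment was not tested. The main fit pairs none, so it leaves out any pairing that exists. With the replicate block 316 clusters rose and 20 fell, of which 308 and 18 were called without it. The arrays give signals, not counts, so their number limits the precision.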
